A study of Mus musculus with 9 samples.

Results

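The genes described here are 43 mouse genes that respond to type I interferon, chosen by name as interferon-stimulated genes and matched by Ensembl identifier to symbols in the count table of the whole series. They were 43 of 51912 genes in that table. After a filter on low counts, 42 of them were tested among 14314 genes, and Epsti1 was the 1 gene that did not pass. Every gene was compared between 3 groups of cultured mouse fibroblasts, library by library.

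The first group, bcatKO_CAF, was cancer-associated fibroblasts, the fibroblasts of a tumour's stroma, with the genotype label beta-catenin -/-. The second, CAF, was cancer-associated fibroblasts labelled wild type, and the third, NF, was normal fibroblasts labelled wild type. All groups were of strain C57BL/6, were grown in DMEM with serum, and had 3 libraries each made from total RNA. No interferon or other agent was named for any group, and the sources used here do not say which tumour was used, how beta-catenin was deleted or how many animals or cultures stand behind the libraries. P-values therefore measure the spread between these libraries, which may be technical.

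Type I interferons are secreted cytokines that bind the receptor chains IFNAR1 and IFNAR2, which switch on the kinases JAK1 and TYK2. These phosphorylate STAT proteins, among them STAT2, which joins IRF9 in a complex that binds the interferon-stimulated response element near its target genes. Fibroblasts both make interferon beta, after sensing foreign or misplaced nucleic acid, and respond to it, and the induced proteins block viral entry, translation and replication, sense RNA and feed back on the pathway.

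The response element is the sequence feature that ties many of these promoters together, so stretches that hold it are shown for genes the results turn on. It was searched as GAAANNGAAA and, for the other strand, TTTCNNTTTC, in RefSeq promoter windows of GRCm38.p6 that run from 250 bases before to 50 bases after a start site; overlapping matches were kept. Each stretch below is printed 5′ to 3′ along its gene's strand, with the matched bases in capitals and up to 15 bases on either side.
Ifit1, chr19:34640770-34640828, plus strand: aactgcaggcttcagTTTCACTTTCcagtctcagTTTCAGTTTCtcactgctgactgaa
Ifit3, chr19:34583358-34583431, plus strand: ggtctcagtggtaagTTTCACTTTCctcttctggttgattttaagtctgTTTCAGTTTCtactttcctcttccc
Isg15, chr4:156200860-156200911, minus strand: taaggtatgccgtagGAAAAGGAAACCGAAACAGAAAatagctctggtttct
Oas3, chr5:120777710-120777749, minus strand: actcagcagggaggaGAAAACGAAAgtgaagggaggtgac
Oas1a, chr5:120907526-120907560, minus strand: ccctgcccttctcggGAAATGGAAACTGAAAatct
Rsad2, chr12:26456548-26456587, minus strand: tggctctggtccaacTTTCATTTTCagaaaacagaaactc
Of the 43 genes, 33 had a window and 16 of these (48.5%) held the element, against 1079 of 27025 genes with a window (3.99%). The shorter form GAAANNGAA or TTCNNTTTC was found in 20 of the 33 (60.6%), against 9.76% of all genes. Ifit1 and Ifit3 each held 2 matches, Isg15 held 3 that overlap, Oas1a held 2 that overlap, and the stretch of Ifit3b had the same letters as that of Ifit3. A match describes letters in this window and is not evidence of binding.

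Several of the genes lie side by side in the genome (GENCODE on GRCm38). Ifit2, Ifit3, Ifit3b and Ifit1 lie on chromosome 19 between 34550694 and 34650009. Oas2, Oas3 and Oas1a lie on chromosome 5 between 120730333 and 120907521, and Oasl2 and Oasl1 lie on the same chromosome between 114896936 and 114937915. Rsad2 and Cmpk2 are neighbours on chromosome 12 between 26442746 and 26479837, and Parp14, Dtx3l and Parp9 on chromosome 16 between 35832874 and 35972605. Transcripts of Ifit3 and Ifit3b were 97.8% identical over 1700 aligned bases, so their counts may be split or lost in counting and are uncertain. Mx1 and Mx2 were 75.3% identical.

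Libraries held 15433810 to 21893574 counts. Ctnnb1, which encodes beta-catenin, was at 668, 637 and 627 CPM (counts scaled to library size with TMM factors) in bcatKO_CAF replicates 1 to 3, against 855, 882 and 858 CPM in CAF and 713, 799 and 669 CPM in NF. Its log2 fold change of bcatKO_CAF over CAF was -0.43 ± 0.14 (SE; edgeR quasi-likelihood test, adjusted p = 0.0339), and since the counts cover exons that a deletion may leave in place, they do not check the genotype label. Over all tested genes other than these 42, NF replicate 1 correlated at 0.988 to 0.993 (Pearson's r over genes) with the bcatKO_CAF libraries, but at 0.957 with NF replicate 2 and 0.944 with NF replicate 3, which correlated at 0.976 with each other. The bcatKO_CAF libraries correlated at 0.933 to 0.993 with the NF libraries, but at 0.814 to 0.834 with the CAF libraries. In this design the genotype and any other difference between the bcatKO_CAF and CAF cells cannot be told apart. NF replicate 1 stands apart from its group, so results that rest on it are given with and without it. The fibroblast marker Thy1 was at 0.0577 to 0.467 CPM in bcatKO_CAF, 1755 to 2187 CPM in CAF and 0.0426 to 0.6335 CPM in NF, while Vim, the mesenchymal filament protein, was at 3817 to 5796 CPM in all 9 libraries.

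The interferon response genes were highest in the bcatKO_CAF libraries and in NF replicate 1, lower in the CAF libraries and NF replicate 2, and lowest in NF replicate 3. Their mean level on the log2(CPM + 0.5) scale was 5.84, 6.21 and 6.78 in bcatKO_CAF replicates 1 to 3, 3.67, 4.12 and 4.82 in CAF, and 6.02, 4.43 and 2.70 in NF. Over the same libraries the mean of all 14314 tested genes stayed between 3.92 and 4.08. Summed over the 42 genes, the level was 4145, 5119 and 7550 CPM in bcatKO_CAF, 1361, 1855 and 2615 CPM in CAF, and 4823, 1504 and 586.4 CPM in NF. In bulk RNA, fewer responding cells and less RNA per cell cannot be told apart.

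**Figure D1:**
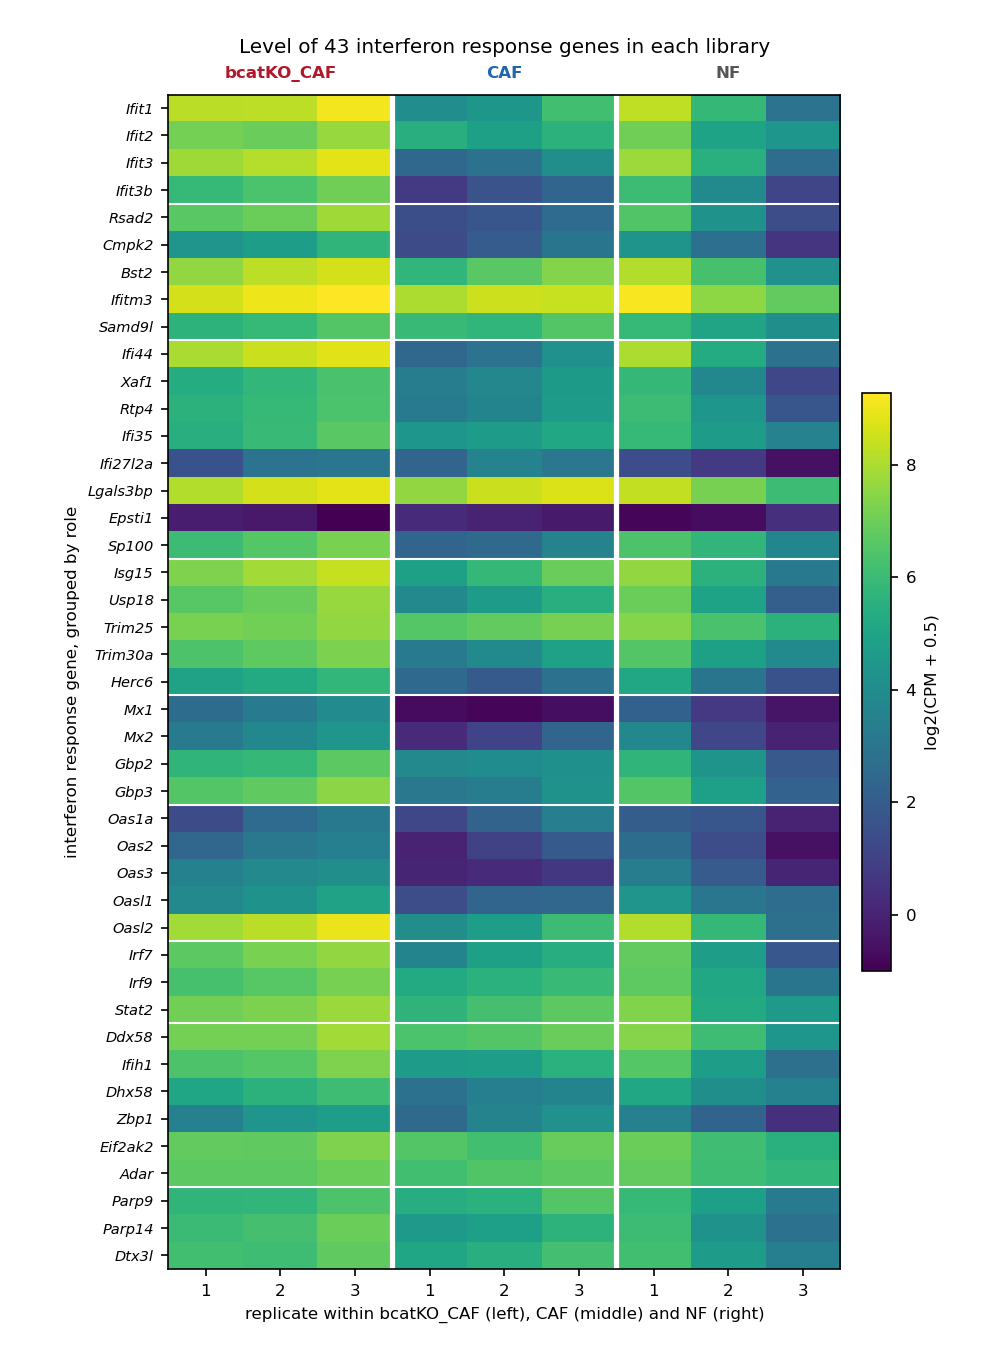
Level of each of the 43 genes, as log2(CPM + 0.5), in each library (columns: replicates 1 to 3 of bcatKO_CAF, CAF and NF), with rows grouped by role. The bcatKO_CAF columns and NF replicate 1 are bright for most genes, NF replicate 3 is darkest, and Epsti1 is dark in all 9 libraries.

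**Figure D2:**
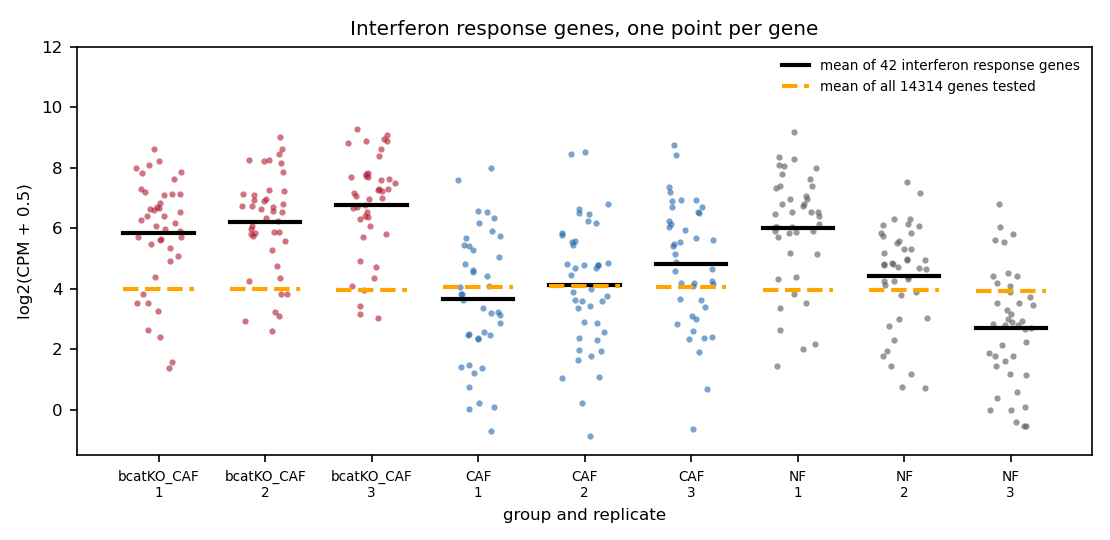
One point per tested interferon response gene, as log2(CPM + 0.5), in each library, with the mean of the 42 genes (black line) and the mean of all 14314 tested genes (dashed line). The black line runs at 5.84 to 6.78 in bcatKO_CAF, 3.67 to 4.82 in CAF and 2.70 to 6.02 in NF, while the dashed line stays near 4.

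Within each group most of the genes followed 1 order of libraries. In NF, replicate 1 was the highest, replicate 2 the middle and replicate 3 the lowest library for 42 of 42 genes, an order that 23.2% of all tested genes had. In bcatKO_CAF, replicate 3 was the highest for 42 of 42 genes, against 38.3% of all genes, and replicate 1 was the lowest for 37, the exceptions being Ifit2, Dtx3l, Trim25, Eif2ak2 and Adar, where replicate 2 was lowest. In CAF, replicate 3 was the highest for 40 of 42, against 28.5% of all genes, the exceptions being Ifi27l2a and Ifitm3, where replicate 2 was highest. Replicate 3 was followed by 2 and then 1 for 35 of 42, against 12.8% of all genes, and replicate 2 was lowest for Ifit2, Mx1, Eif2ak2, Herc6 and Samd9l. The counts of genes highest in those libraries were the same with RLE scaling and with total counts as the scaling. The libraries of a group carry no label for a batch, so what these orders follow cannot be read from the design.

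The range between the highest and the lowest library of a group was wide for these genes. The median range was 0.973 in bcatKO_CAF, 1.134 in CAF and 3.21 in NF on the log2 scale, against medians of 0.309, 0.392 and 0.635 over all tested genes. In NF the range exceeded 3, which is 8-fold, for 24 of 42 genes, against 245 of 14314 genes (1.71%), so that the 24 made up 9.80% of all such genes. Ifit1, which binds viral RNA ends and blocks their translation, had the widest NF range at 5.39, and Adar, which edits double-stranded RNA, had the narrowest at 0.988. Adar was also the narrowest in bcatKO_CAF at 0.285.

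The first comparison asks what differs between cancer-associated fibroblasts labelled beta-catenin -/- and those labelled wild type; the libraries of these groups differ across the transcriptome, as the correlations above show. The genes with the largest changes that passed were Mx1, Rsad2, Ifi44, Ifit3, Ifit3b and Oas3, each over 4 on the log2 scale in favour of bcatKO_CAF. All 4 IFIT genes rose (median log2 fold change 4.21), as did 3 of 4 Mx and GBP genes (3.004) and 3 of 5 OAS genes (2.40), against 1 of 6 sensor genes (0.75) and 0 of 3 transcription factor genes (1.13). These counts are from the fit of all 9 libraries, and differences between these groups of genes were not tested. Of 42 genes tested, 17 (40.5%) were higher in bcatKO_CAF at an adjusted p under 0.05, against 21.5% of all tested genes, and 0 were lower, against 22.7% of all. In the edgeR test 24 of the 42 had an unadjusted p under 0.05, all of them higher. Of all 14314 tested genes, 3690 were higher and 3805 lower at such a p. DESeq2 and limma-voom also gave 0 lower among the 42. The median log2 fold change of the 42 was 2.02, against -0.01 for all tested genes. A positive value was found for 39 of 42, against 49.4% of all tested genes. All 3 bcatKO_CAF libraries lay above all 3 CAF libraries for 32 of 42 genes (76.2%), against 32.4% of all tested genes, and below them for 0, against 33.3%.

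The number that passed changed with the libraries in the fit, and the cause was not tested. With only the 6 libraries compared, 32 genes were higher and 0 lower, against 27.8% and 29% of all genes; without NF replicate 1, 30 of 43 were higher and 0 lower, against 26% and 27.5%. Those fits held all 17 genes. Leaving out NF replicate 3 gave 29, leaving out CAF replicate 2 left 10, leaving out CAF replicate 1 left 11, and the median log2 fold change stayed close to 2 without NF replicate 1, at 1.97.

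All 4 IFIT genes rose. Ifit1 was at 301, 304.5 and 549.6 CPM in bcatKO_CAF, against 16.1, 21.3 and 70.6 CPM in CAF. Ifit3, a partner that stabilises IFIT1 on RNA in human cells, was at 225, 284 and 471 CPM in bcatKO_CAF, against 5.04, 6.83 and 16.6 CPM in CAF. The 2 groups did not overlap for either gene. The log2 fold change was 3.42 ± 1.12 for Ifit1 (adjusted p = 0.0333) and 5.10 ± 1.13 for Ifit3 (adjusted p = 0.00554), where errors are SE and the test is edgeR's. Ifit3b, at 59.2 to 133 CPM in bcatKO_CAF and 1.18 to 4.68 CPM in CAF, changed by 5.003 ± 1.11 (adjusted p = 0.00558) with the uncertainty named above. For Ifit2, another RNA-binding member, the values were 140.3, 122.6 and 208 CPM in bcatKO_CAF against 43.4, 28.5 and 48.4 CPM in CAF, with a change of 1.97 ± 0.62 (adjusted p = 0.0271). The calls of Ifit1 and Ifit2 were lost in 5 of the 9 fits that leave out 1 library (adjusted p up to 0.119 and 0.104), and those of Ifit3 and Ifit3b were kept in all 9.

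Among the enzymes that act on nucleotides and the membrane proteins, Rsad2 and Cmpk2 rose. Rsad2 encodes viperin, which makes a chain-terminating nucleotide, and it was at 100.2, 124 and 222 CPM in bcatKO_CAF, against 2.30, 2.90 and 5.59 CPM in CAF. Its change was 5.36 ± 1.12 (adjusted p = 0.00398). Cmpk2, the neighbouring gene for a mitochondrial nucleotide kinase, was at 20.2, 26.4 and 52.0 CPM in bcatKO_CAF and 2.07, 3.47 and 7.45 CPM in CAF, a change of 2.92 ± 0.88 (adjusted p = 0.0236) that did not pass without CAF replicate 1, CAF replicate 2 or bcatKO_CAF replicate 3 (adjusted p of 0.0743 to 0.0902). Bst2, or tetherin, which holds budding virions at the membrane, was at 197, 307.5 and 390.4 CPM in bcatKO_CAF and 53.4, 98.7 and 166 CPM in CAF; its groups did not overlap, but its value of 1.49 ± 0.79 did not pass (adjusted p = 0.154). Ifitm3, which blocks viral entry, was the most abundant of the 43 genes per exon length, at a mean of 753 RPKM in bcatKO_CAF and 472 RPKM in CAF. Its log2 fold change was 0.67 ± 0.51 (adjusted p = 0.309), and that of Samd9l, an inhibitor of translation, was -0.04 ± 0.42 (adjusted p = 0.943).

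Mx1 had the largest fitted change of the 42 tested genes, on few counts in CAF. It was at 5.72, 8.82 and 15.1 CPM in bcatKO_CAF, and at 0.112, 0.0518 and 0.143 CPM in CAF, where it had 2, 1 and 3 counts. The fitted log2 fold change was 6.49 ± 1.01 (adjusted p = 0.000826), and the ratio of summed counts, 521 in bcatKO_CAF against 6 in CAF, scaled to library size, was 96.8 with an exact 95% interval of 44.15 to 265 for counting error only. In C57BL/6 mice the Mx1 gene is known to carry a deletion that prevents a working protein, so its RNA does not stand for a working protein. Mx2, the related dynamin-like GTPase, was at 9.12 to 20.2 CPM in bcatKO_CAF and 0.672 to 4.58 CPM in CAF, and its 2.63 ± 1.05 did not pass (adjusted p = 0.0675). The guanylate-binding GTPases, which attack the membranes of pathogens inside the cell, both rose. Gbp3 was at 91.95, 107 and 181 CPM in bcatKO_CAF and 8.18, 9.84 and 18.6 CPM in CAF, with 3.38 ± 0.88 (adjusted p = 0.0122), and Gbp2 had 2.18 ± 0.74 (adjusted p = 0.0373). Leaving out CAF replicate 1 or 2 ended the call of Gbp3, and leaving out any of the CAF or bcatKO_CAF libraries ended that of Gbp2 (adjusted p up to 0.0566 and 0.111).

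The OAS family makes the messenger that activates RNase L, or, for the OASL proteins, binds RNA without that activity in most members. Oas3 was at 11.05, 13.8 and 16.5 CPM in bcatKO_CAF, against 0.560, 0.673 and 1.10 CPM in CAF, a change of 4.13 ± 0.82 (adjusted p = 0.00317). Oasl1, a translational repressor of Irf7 in mice, was at 13.8, 18.5 and 29.5 CPM in bcatKO_CAF and 2.185, 4.66 and 4.82 CPM in CAF, with 2.40 ± 0.52 (adjusted p = 0.00505). Neither pair of groups overlapped. Oasl2 had 230.4, 299 and 501 CPM in bcatKO_CAF and 16.4, 26.9 and 65.6 CPM in CAF, with 3.24 ± 1.08 (adjusted p = 0.0348, up to 0.119 without 1 library). Oas2 had 2.11 ± 0.92 and did not pass (adjusted p = 0.0883). Oas1a differed from these, at 2.12, 5.55 and 8.49 CPM in bcatKO_CAF and 1.79, 4.40 and 10.1 CPM in CAF. Its groups overlapped, its log2 fold change was -0.01 ± 0.76 (adjusted p = 0.992), and its promoter stretch above holds the element as that of Oas3 does.

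The 3 transcription factor genes of the list did not pass in the fit of all 9 libraries. Irf7, the amplifier of the response, was at 102, 149 and 195 CPM in bcatKO_CAF and 11.8, 27.9 and 42 CPM in CAF, with 2.45 ± 0.97 (adjusted p = 0.0669). Stat2 was at 137, 152 and 214 CPM in bcatKO_CAF and 50.5, 74.7 and 104 CPM in CAF, with 1.13 ± 0.62 (adjusted p = 0.164), and Irf9 had 1.12 ± 0.70 (adjusted p = 0.22). The bcatKO_CAF libraries were above the CAF libraries for all 3. Without NF replicate 1, Irf7 (adjusted p = 0.0133 in edgeR's test) and Stat2 (adjusted p = 0.0108) passed, and Irf9 did not (adjusted p = 0.0705). An exact two-sided permutation test of 3 libraries against 3 cannot give a p below 0.1, and it gave 0.1 for Irf7, Stat2 and the other 8 genes it was run on (Ifit1, Ifit3, Rsad2, Isg15, Usp18, Ddx58, Bst2 and Ifitm3).

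Of the 6 genes for sensors and binding proteins of nucleic acid, Dhx58 rose. It encodes LGP2, a regulator of the RIG-I family, and was at 33.7, 47.7 and 67.1 CPM in bcatKO_CAF, against 6.72, 10.25 and 12.1 CPM in CAF, a change of 2.35 ± 0.44 (adjusted p = 0.00225). The RNA sensors themselves differed by less. Ddx58, which encodes RIG-I, was at 139.5, 140.4 and 229.7 CPM in bcatKO_CAF and 81.4, 91.0 and 121 CPM in CAF, with 0.80 ± 0.58 (adjusted p = 0.293). Ifih1, or MDA5, had 1.80 ± 0.74 (adjusted p = 0.077, and 0.0111 without NF replicate 1). Eif2ak2, or PKR, had 0.43 ± 0.34, Adar 0.34 ± 0.25 and Zbp1, a sensor of Z-form nucleic acid, 0.70 ± 0.73; their groups overlapped.

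In the ISG15 system, Isg15, the ubiquitin-like modifier, was at 157, 234 and 333 CPM in bcatKO_CAF and 28.0, 56.5 and 123 CPM in CAF, with 1.80 ± 0.92 (adjusted p = 0.139). Usp18, which removes ISG15 and damps the receptor, had 2.35 ± 0.95 (adjusted p = 0.0702). Herc6, the mouse ligase for ISG15, rose: it was at 29.6, 38.3 and 55.8 CPM in bcatKO_CAF and 5.21, 3.31 and 6.59 CPM in CAF, with 3.03 ± 0.80 (adjusted p = 0.013), and the call was lost without CAF replicate 2 (adjusted p = 0.0607). Trim30a rose by 2.72 ± 0.67 (adjusted p = 0.00959), and Trim25, the ubiquitin ligase that assists RIG-I, had 0.45 ± 0.39 with overlapping groups. Of the ADP-ribosyltransferase genes and their partner, none passed, with 1.38 for Parp14, 0.72 for Dtx3l and 0.07 for Parp9.

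Among the others, Sp100, a component of nuclear PML bodies, was at 66.3, 93.5 and 149 CPM in bcatKO_CAF, against 4.59, 5.44 and 11.75 CPM in CAF, a change of 3.82 ± 0.68 (adjusted p = 0.00171). Ifi44 was at 254, 348 and 452 CPM in bcatKO_CAF, against 4.99, 7.04 and 17.8 CPM in CAF, a change of 5.14 ± 1.16 (adjusted p = 0.00599). Both calls were kept in all 9 fits that leave out 1 library, as were those of Mx1, Rsad2, Oas3, Oasl1, Dhx58 and Trim30a. Rtp4, Ifi35 and Xaf1 had positive values of 2.07, 1.35 and 1.91 that did not pass, and Lgals3bp had 0.22. Ifi27l2a was at 2.51, 7.06 and 7.68 CPM in bcatKO_CAF and 4.65, 11.7 and 7.97 CPM in CAF, with overlapping groups and -0.49 ± 0.65 (adjusted p = 0.567). Epsti1, which was not tested, had 6, 6 and 0 counts in bcatKO_CAF 12, 10 and 7 in CAF, and 1, 3 and 14 in NF.

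**Figure D3:**
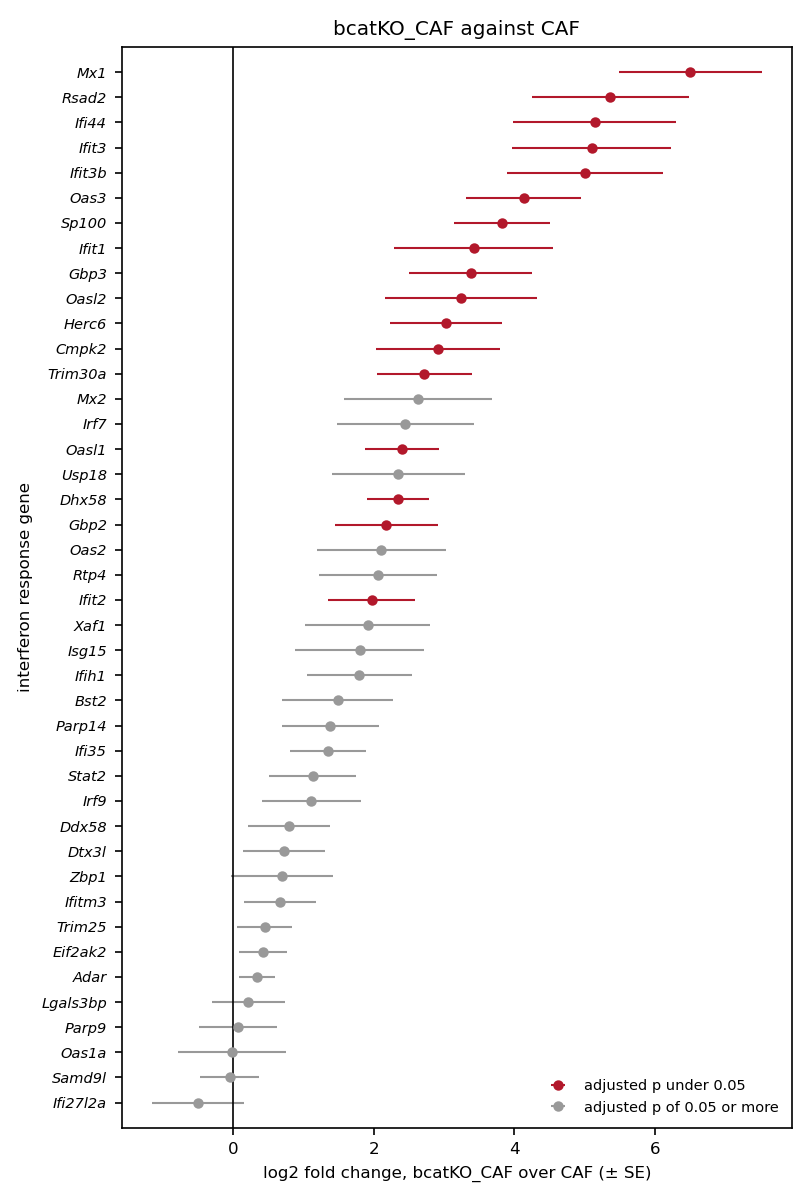
Log2 fold change of bcatKO_CAF over CAF for the 42 tested genes (points) with its SE (bars), coloured by whether the adjusted p was under 0.05. Mx1 is at the top with 6.49, the genes past the threshold run down to Ifit2 at 1.97, and Ifi27l2a is lowest at -0.49.

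The response element was about as frequent in the promoter windows of the genes that rose as in those of the others. It was found in 8 of 15 genes that rose and had a window, and in 8 of 17 that did not pass. The median log2 fold change was 1.99 for the 16 genes with it and 1.94 for the 16 tested genes with a window that lacked it.

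The second comparison asks what differs between cancer-associated and normal fibroblasts, and here the NF libraries disagreed among themselves. Of 42 genes, 1 (2.38%) was higher in CAF, against 20% of all tested genes. Lower were 8 (19%), close to the 19.9% of all tested genes. Their median log2 fold change of CAF over NF was -0.62, against -0.04 for all genes. The 3 CAF libraries lay above the 3 NF libraries for 1 gene (24.6% of all tested genes) and below them for 3 (23.6% of all). Ifi27l2a was the gene that rose, at 4.65, 11.7 and 7.97 CPM in CAF, against 2.22, 1.19 and 0.185 CPM in NF, a change of 2.76 ± 0.72 (adjusted p = 0.0133, and 0.053 without CAF replicate 2).

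The 8 lower genes were Sp100, Mx1, Rsad2, Oas3, Ifi44, Ifit3b, Ifit3 and Oasl1, and each of them was also among the genes that rose in bcatKO_CAF against the same CAF libraries. Both comparisons use those CAF libraries, so this overlap lends no further support. Sp100 was at 4.59, 5.44 and 11.75 CPM in CAF, against 84.8, 53.8 and 12.7 CPM in NF, and fell by 2.79 ± 0.65 on the log2 scale (adjusted p = 0.00766). It was below every NF library and kept its call in all 9 fits that leave out 1 library. Mx1 had -4.04 ± 1.02 (adjusted p = 0.0111) and Oasl1 -1.53 ± 0.51 (adjusted p = 0.0393), both with CAF below every NF library. For Mx1 this rests on few counts, with 2, 1 and 3 in CAF against 64, 27 and 4 in NF. Its call was lost without CAF replicate 2 (adjusted p = 0.0513) and in limma-voom (adjusted p = 0.0652). The call of Oasl1 was kept in 4 of the 9 fits that leave out 1 library (adjusted p up to 0.131). For the remaining 5 the groups overlapped, with NF replicate 3 inside or below the CAF range. Rsad2 was at 2.30, 2.90 and 5.59 CPM in CAF, against 89.1, 18.5 and 2.215 CPM in NF, with -3.34 ± 1.03 (adjusted p = 0.0284). Ifi44 had -3.34 ± 1.07 (adjusted p = 0.0329), Ifit3b -3.25 ± 1.04 (adjusted p = 0.0329), Ifit3 -3.25 ± 1.04 (adjusted p = 0.0331) and Oas3 -2.52 ± 0.80 (adjusted p = 0.0309).

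Without NF replicate 1 more values were positive, 31 of 43 (49.7% of all genes had that sign), against 14 of 42 with it (47.7% of all). Then 11 of 43 (25.6%) were higher in CAF, close to the 23.9% of all genes. Lower were 2 (4.65%), against 21.2% of all, and the median log2 fold change was 0.65. The 11 were Ifi27l2a, Samd9l, Ifitm3, Lgals3bp, Stat2, Parp9, Trim25, Dtx3l, Zbp1, Adar and Parp14. Stat2, at 0.05 ± 0.61 with all libraries (adjusted p = 0.957), then had 1.31 (adjusted p = 0.0128), and Ifitm3, at 0.12 ± 0.51 with all libraries (adjusted p = 0.874), had 1.12 (adjusted p = 0.00971). Sp100 at -2.19 and Mx1 at -2.75 were still lower. The other 6 calls were lost, with Ifit3 at -1.43 (adjusted p = 0.144) and Ifi44 at -1.23 (adjusted p = 0.168). Without NF replicate 3 the lower genes numbered 16 instead, and without CAF replicates 1, 2 or 3 they numbered 2, 1 and 4. Limma-voom gave 1, as did edgeR on only the 6 CAF and NF libraries. NF replicate 1 was above all CAF libraries for 35 of 42 genes, against 40.6% of all tested genes, NF replicate 2 for 12 (40.9% of all) and NF replicate 3 for 3 (39.5% of all). NF replicate 3 was below all CAF libraries for 34, against 40.2% of all genes.

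The other anchor genes show the same split among the NF libraries. Ifit1 was at 317, 56.9 and 7.075 CPM in NF, with a change of -1.82 ± 1.06 for CAF over NF (adjusted p = 0.204) and 0.16 without NF replicate 1. Isg15 was at 197, 47.9 and 8.43 CPM in NF, Irf7 at 112, 26.05 and 2.95 CPM, and Usp18 at 124.5, 30.4 and 3.88 CPM. Their values were -0.29 ± 0.89, -0.79 ± 0.93 and -0.93 ± 0.91 with all libraries and 1.29, 0.89 and 0.68 without NF replicate 1, and they did not pass in either fit. Ddx58 was at 169.8, 67.8 and 20.7 CPM in NF, and Bst2 at 269.7, 78.2 and 17.7 CPM, with 0.18 ± 0.58 and -0.20 ± 0.78 (adjusted p of 0.832 and 0.866).

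For bcatKO_CAF against NF, 0 of 42 genes passed in either direction, as did 0 of all 14314 genes (0%). Every one of the 42 log2 fold changes was positive, a sign that 46.8% of all tested genes had, with a median of 1.38 and values from 0.52 for Adar to 2.45 for Mx1. Adjusted p-values in edgeR's test lay between 0.601 and 0.61, and 4 genes (Mx1, Ifi27l2a, Dhx58 and Zbp1) had an unadjusted p under 0.05. Of all 14314 tested genes, 310 were higher and 392 lower at such a p. At an adjusted p under 0.05, DESeq2 and limma-voom gave 0 of the 42 genes as well. All 3 bcatKO_CAF libraries lay above all 3 NF libraries for 7 genes (Mx1, Ifi27l2a, Cmpk2, Oas3, Rsad2, Gbp2 and Ifit3), against 3.23% of all tested genes, and below them for 0, against 3.64%. NF replicate 1 lay inside the bcatKO_CAF range for 35 of 42 genes (57.6% of all genes did) and below it for 7 (20.8% of all). NF replicate 2 lay below it for 41 (37% of all) and NF replicate 3 for 42 (38.6% of all).

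Without NF replicate 1, 39 of 43 genes (90.7%) were higher in bcatKO_CAF and 0 were lower, against 11% and 7.04% of all genes, and the median log2 fold change was 2.63. Ifi44 had the largest value, 3.91 (adjusted p = 0.0148), followed by Rsad2 at 3.82 (adjusted p = 0.0159) and Mx1 at 3.75 (adjusted p = 0.00894). Ifit2 had the smallest adjusted p, 0.00392, with 2.61. The 7 anchor genes that did not pass against CAF with all libraries passed here, and in this same fit without NF replicate 1 all of them but Ddx58 (adjusted p = 0.111) passed against CAF too. Isg15 had 3.09 (adjusted p = 0.0324), Irf7 3.34 (adjusted p = 0.0272), Usp18 3.03 (adjusted p = 0.034), Stat2 2.45 (adjusted p = 0.00649), Ddx58 1.94 (adjusted p = 0.0239), Bst2 2.64 (adjusted p = 0.0292) and Ifitm3 1.79 (adjusted p = 0.0076). The 4 that did not pass were Oas2, Sp100, Oas1a and Epsti1. Of the settings run, leaving out NF replicate 1 was the only one in which any of the genes passed. The comparisons share libraries, so their values for a gene are not independent of each other.

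**Figure D4:**
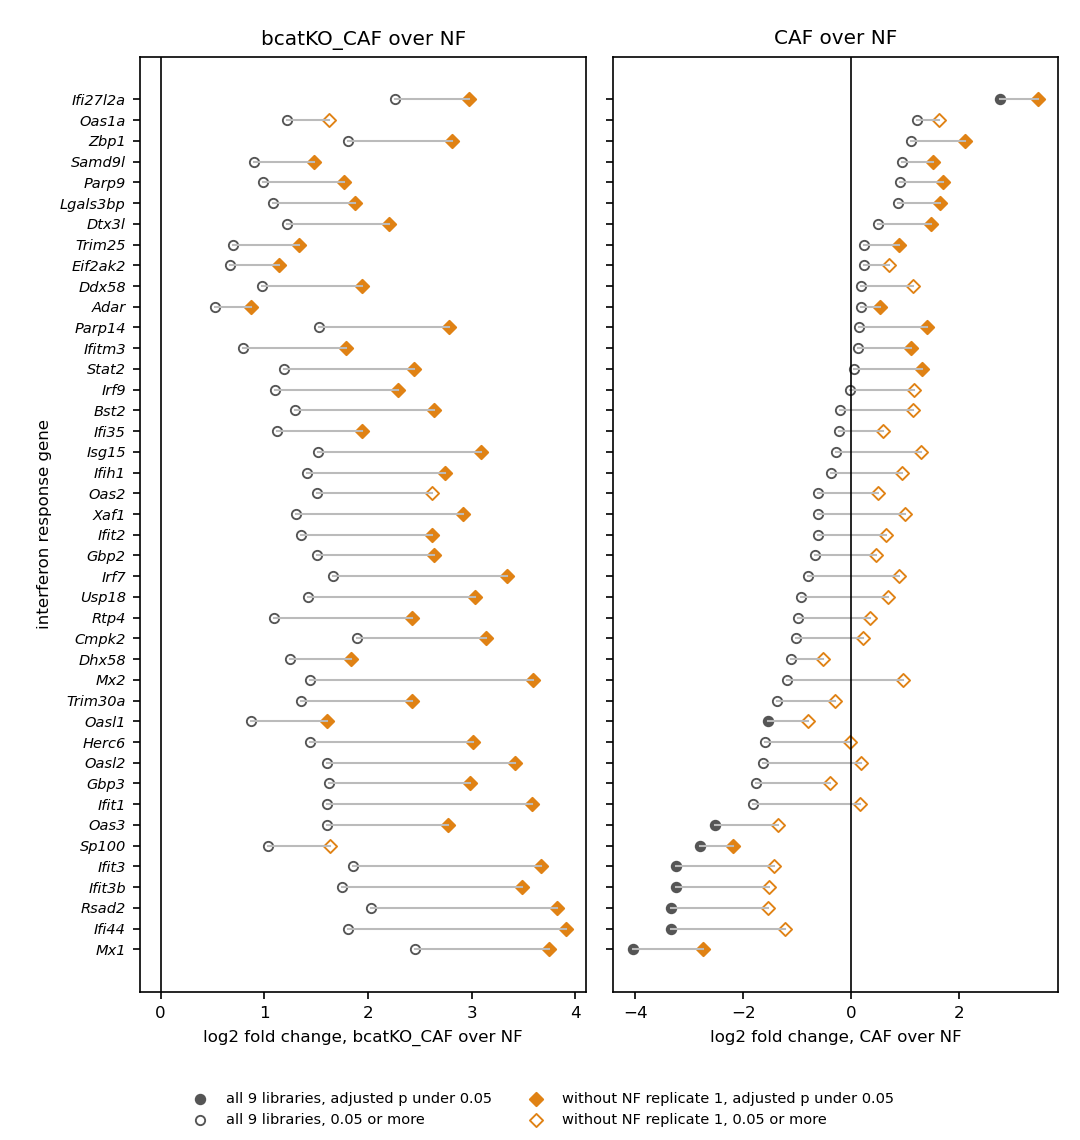
Log2 fold change of each gene against NF, for bcatKO_CAF over NF (left) and CAF over NF (right), with all 9 libraries (circles) and without NF replicate 1 (diamonds), filled where the adjusted p was under 0.05. In the left panel all values are positive and 39 genes pass only without that library (Epsti1, tested only then and not passing, is not drawn); in the right panel the median moves to 0.65 without it, against -0.62 with it.

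The genes did not move in equal measure. To show this the mean over the 42 genes was subtracted from each library's log2 values. The median SD within a group then fell to 0.129 in bcatKO_CAF, 0.285 in CAF and 0.531 in NF, against 0.494, 0.600 and 1.615 before. That mean came from these same genes, which mostly shared an order of libraries, so the fall was built in and lends no support. On this relative scale all 3 CAF libraries lay below the other 6 for 9 genes (Ifi44, Rsad2, Ifit3, Ifit3b, Mx1, Sp100, Oas3, Gbp3 and Trim30a) and above them for 13 (Ifi27l2a, Samd9l, Oas1a, Parp9, Lgals3bp, Zbp1, Dtx3l, Ddx58, Irf9, Stat2, Parp14, Bst2 and Ifih1), with 20 overlapping. These were 21.4% and 31% of the 42 genes. Over all tested genes, with each library's mean over all of them removed, the CAF libraries lay below the other 6 for 25.1% and above them for 20.2%, so the lower count is not above that of genes at large. The largest relative differences of bcatKO_CAF minus CAF were 3.16 for Ifi44 and -2.58 for Ifi27l2a. Because the mean is taken over the same genes, a gene below it must be balanced by others above it, so these values are unequal change and not a lack of change.

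Ratios of counts within a library restate these data for 3 genes picked from those named above after their values were seen, and lend them no further support. Per count of Isg15, Ifit3 had 1.44, 1.215 and 1.415 counts in bcatKO_CAF, 0.180, 0.121 and 0.135 in CAF, and 1.12, 0.945 and 0.701 in NF. Ifi44 had 1.62, 1.49 and 1.36 in bcatKO_CAF, 0.178, 0.125 and 0.1445 in CAF, and 1.30, 0.829 and 0.8175 in NF. Rsad2 had 0.638, 0.532 and 0.668 in bcatKO_CAF, 0.0820, 0.0513 and 0.0454 in CAF, and 0.452, 0.3865 and 0.263 in NF. The CAF libraries were below the other 6 for all 3 ratios, although CAF replicate 3 held more Isg15 than NF replicates 2 and 3.

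**Figure D5:**
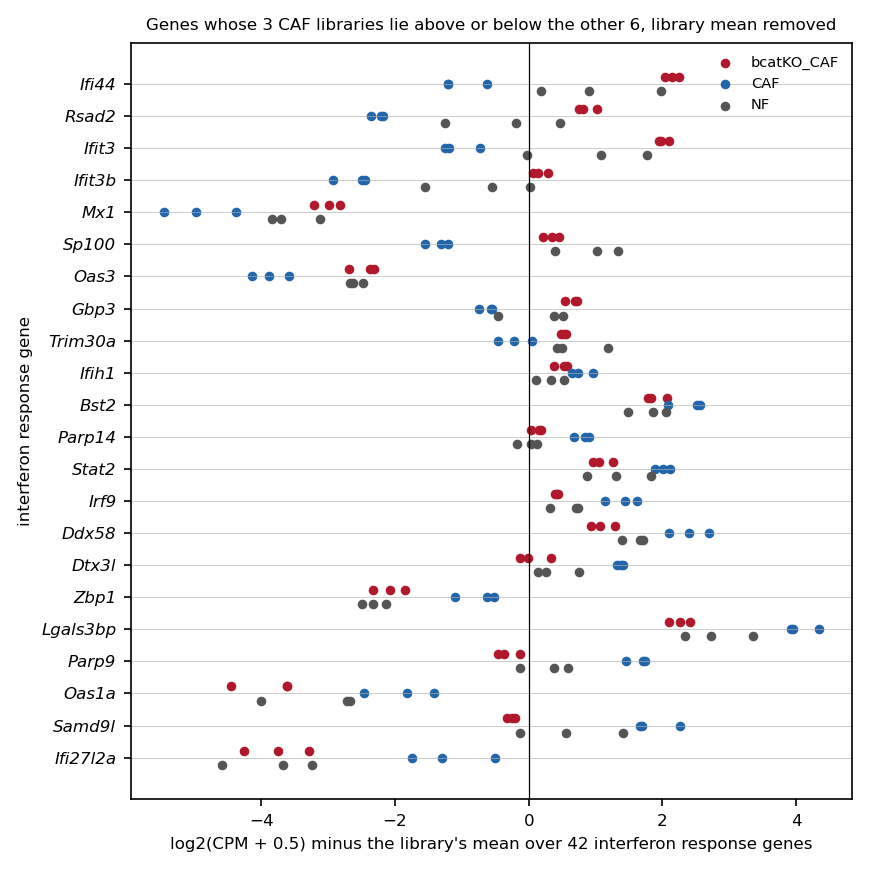
Level of a gene relative to the library's mean over the 42 genes, on the log2 scale, for the 22 genes whose CAF libraries all lie on 1 side of the other 6; each point is a library. Ifi44, Rsad2 and Ifit3 at the top are lowest in CAF, and Ifi27l2a, Samd9l and Oas1a at the bottom are highest in CAF.

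Upstream of these genes, interferon transcripts were nearly absent. Of 21 ligand genes of types I, II and III, 0 passed the filter and 13 had no count in any library; the list summed to 0 to 10 counts per library. Ifnb1, for interferon beta, had 2, 5 and 3 counts in bcatKO_CAF, 0 in every CAF library and 4, 0 and 0 in NF, with the 4 in replicate 1. A count of 0 allows up to 0.1432 to 0.1681 CPM in the CAF libraries, on the same TMM scale, and the bcatKO_CAF libraries had 0.1285 to 0.2595 CPM, so the difference is close to the limit of this depth. Ifng had 0 counts in all 9 libraries. The receptor chain Ifnar1 was at 96.6, 97.3 and 87.1 CPM in bcatKO_CAF and 102.5, 109 and 91.6 CPM in CAF, and Ifnar2 at 29.7, 32.75 and 35.2 CPM in bcatKO_CAF and 33.45, 43.9 and 32.8 CPM in CAF. Neither passed in any comparison with all libraries. The receptor chains for interferon gamma were both lower in bcatKO_CAF than in CAF, with -0.65 ± 0.22 for Ifngr1 (adjusted p = 0.036) and -0.73 ± 0.21 for Ifngr2 (adjusted p = 0.0172).

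Of 12 genes for JAK-STAT signalling and its inhibitors, 3 rose and 3 fell in bcatKO_CAF against CAF, with a median log2 fold change of 0.13, shares close to the 21.5% of all genes that were higher and 22.7% that were lower. Ptpn11, a phosphatase of receptor signalling, fell by 1.20 ± 0.14 (adjusted p = 0.000157), Stat3 by 1.01 ± 0.19 (adjusted p = 0.00246) and Jak1 by 0.68 ± 0.13 (adjusted p = 0.00226), while Tyk2 rose by 0.77 ± 0.18 (adjusted p = 0.00656). Of 5 tested regulatory factors outside the list, Irf2 and Irf8 rose and 0 fell. Irf3, the factor that sensors activate, had -0.04 ± 0.23.

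Of 14 tested genes for sensing and its adaptors, 6 rose and 2 fell in bcatKO_CAF against CAF (21.5% and 22.7% of all genes did), 1 rose and 4 fell in CAF against NF (20% and 19.9% of all), and 0 passed for bcatKO_CAF against NF. Aim2, a sensor of DNA, was at 39.8, 42.7 and 31.5 CPM in bcatKO_CAF, 0.168, 0.155 and 0.2865 CPM in CAF, and 32.9, 43.6 and 67.9 CPM in NF, a change of 7.48 ± 0.39 for bcatKO_CAF over CAF (adjusted p = 1.98e-06). Its NF libraries were all high, unlike those of the interferon response genes. Tmem173, or STING, ran the other way, at 28.85, 26.7 and 23.4 CPM in bcatKO_CAF and 81.2, 98.8 and 75.0 CPM in CAF, and fell by 1.69 ± 0.18 (adjusted p = 0.000107). Mavs, the adaptor of RIG-I and MDA5, rose by 0.76 ± 0.15 (adjusted p = 0.00262) and Ifi205 by 4.43 ± 1.04 (adjusted p = 0.00732). Of 8 tested genes that clear nucleic acid, 2 rose and 2 fell, close to those shares of all genes, among them Samhd1, a dNTP hydrolase, which fell by 0.86 ± 0.19 (adjusted p = 0.00569), and Pnpt1, a mitochondrial RNA-degrading enzyme, which rose by 1.11 ± 0.25 (adjusted p = 0.00657).

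A further list of 40 interferon-induced genes outside the 43 had 38 tested. In bcatKO_CAF against CAF, 15 rose and 2 fell, against 21.5% and 22.7% of all genes, with a median log2 fold change of 1.11. In CAF against NF, 4 rose and 6 fell, against 20% and 19.9% of all genes. For bcatKO_CAF against NF 0 passed, and without NF replicate 1 there were 20 of 39 higher and 1 lower, against 11% and 7.04% of all genes. The library orders were found here too: NF replicate 1 was highest for 34 of 38, bcatKO_CAF replicate 3 for 34 and CAF replicate 3 for 27. Over all tested genes these shares were 40.2%, 38.3% and 28.5%. Nlrc5, a driver of MHC class I transcription, was at 41.4, 54.0 and 64.25 CPM in bcatKO_CAF and 3.08, 3.83 and 7.31 CPM in CAF, and rose by 3.48 ± 0.54 (adjusted p = 0.000818). Mlkl, the executioner of necroptosis, rose by 1.75 ± 0.14 (adjusted p = 1.5e-05) and Plscr1 by 1.71 ± 0.32 (adjusted p = 0.00215), while Slfn5 fell by 2.47 ± 0.37 (adjusted p = 0.000671).

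Of 18 tested genes that mark the response to interferon gamma, 9 rose and 1 fell in bcatKO_CAF against CAF, against 21.5% and 22.7% of all tested genes. Gbp5 was at 17.03, 18.7 and 27.4 CPM in bcatKO_CAF, 0, 0.207 and 0.04775 CPM in CAF, and 11.15, 2.94 and 0.615 CPM in NF, with 7.83 ± 1.18 for bcatKO_CAF over CAF (adjusted p = 0.000682); with 0 to 4 counts in each CAF library, the size of that change depends on the fit. Cd274, for the checkpoint ligand PD-L1, rose by 3.55 ± 0.44 (adjusted p = 0.000216) and Psmb9, an immunoproteasome subunit, by 2.57 ± 0.46 (adjusted p = 0.00176). Icam1, an adhesion molecule, had at most 1 count in each bcatKO_CAF library and was at 7.30 to 9.50 CPM in CAF, and fell by 7.49 ± 0.64 (adjusted p = 2.69e-05), a size that also depends on the fit.

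Markers of other cells differed between the groups too. The 10 macrophage and leukocyte markers, of which 5 were tested, summed to 46.3 to 75.2 CPM in bcatKO_CAF, 7.115 to 11.5 CPM in CAF and 66.3 to 252 CPM in NF, where replicate 2 was highest. In bcatKO_CAF and NF most of this was Cd68 and Laptm5, while in CAF replicate 1 Csf1r, at 4.258 CPM, and Cd14, at 3.978 CPM, made up most of it. The pan-leukocyte gene Ptprc was at 0 to 0.208 CPM in bcatKO_CAF, 0.04775 to 0.168 CPM in CAF and 0.06335 to 1.24 CPM in NF. Of the 6 markers of plasmacytoid dendritic cells, which make much interferon, 2 were tested, and Bst2, 1 of these, is itself among the 43 genes. The other, Tcf4, was at 465 to 608 CPM in bcatKO_CAF, 206 to 277 CPM in CAF and 504.5 to 720 CPM in NF. Tcf4 was higher in bcatKO_CAF than in CAF by 1.25 ± 0.20 (SE, edgeR's test, adjusted p = 0.000886). Siglech had no count in any library, and Ccr9, Ly6d and Spib had 4, 8 and 5 counts over all 9 libraries. Endothelial markers summed to at most 16.5 CPM, epithelial ones to at most 16.2 CPM and melanocyte ones to at most 15.9 CPM in any library. The 12 fibroblast markers summed to 11050 to 14890 CPM in bcatKO_CAF, 40440 to 60480 CPM in CAF and 5712 to 13280 CPM in NF. Vim and Fn1 made up most of the sums in bcatKO_CAF (means of 5387 and 5789 CPM) and in NF (4712 and 3058 CPM). Col1a1 was at means of 293 CPM in bcatKO_CAF, 19930 CPM in CAF and 149 CPM in NF, and Pdgfrb at 37.7, 706 and 29.9 CPM. Of the 12 fibroblast markers, 8 were lower in bcatKO_CAF than in CAF and 0 higher, against 22.7% and 21.5% of all tested genes. In CAF against NF, 8 were higher and 0 lower, against 20% and 19.9% of all. The part of these markers in the results was not tested.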

How the data were processed

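RNA was extracted with a PureLink kit and sequenced from an Illumina library, per the labels' protocols. The submitters' processing notes name bcl2fastq, TopHat, edgeR and the build mm10; versions, the counting tool, the annotation and the use of strand are not stated there. The deposited values are raw counts per gene, made by the authors, and the table of the series and the sample files differed in 0 values. Of 51912 Ensembl identifiers, 51633 matched a symbol.

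All 9 libraries were fitted together with edgeR 4.0.16 (R 4.3.3): genes were filtered with filterByExpr, scaled with TMM and tested with the quasi-likelihood test. P-values were adjusted over all tested genes (Benjamini-Hochberg), with a threshold of 0.05. SE is the size of the log2 fold change divided by the square root of the F statistic. CPM and RPKM (CPM per kilobase of summed exons, GENCODE M21) were computed from the counts, and log2 values used a pseudocount of 0.5. Replicate numbers follow record order and pair nothing across groups. Alternatives were RLE or total-count scaling, 2 other filters, DESeq2 1.42.0, limma-voom (limma 3.58.1), a test beyond a fold of 1.5, only the 6 libraries compared, counts without Gm42418, a pseudocount of 2 and each library left out. The fit was also run on simulated counts with 200 genes changed. No library stood apart in them, so that run does not bear on NF replicate 1. Intervals and floors (3 counts) cover counting error only.

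The genes and lists were chosen with earlier results of these data known. Named were the 10 anchor genes, up to 25 genes past the threshold per comparison, and up to 4 with the smallest adjusted p per pathway list; other genes named were chosen after their values were seen. Promoters came from RefSeq on GRCm38.p6. One gene of the JAK-STAT list is not reported here by name.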

Additional observations from a re-analysis of the deposited data

How the results depend on the processing

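Of the 17 genes higher in bcatKO_CAF than in CAF, the count was 28 with no filter on low counts, 32 with only the 6 libraries compared and 10 to 30 with 1 library left out. For CAF against NF, 1 gene was higher, with 2 under no filter and 0 to 11 with 1 library left out, and 8 were lower, with 1 in limma-voom, 3 in the test beyond a fold of 1.5, 1 with only the 6 libraries compared and 1 to 16 with 1 library left out. For bcatKO_CAF against NF the count was 0, and 0 to 39 with 1 library left out; the 39 came without NF replicate 1. The median log2 fold change of CAF over NF, -0.62, was 0.064 in limma-voom and ran between -1.15 and 0.65 with 1 library left out.

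No anchor gene passed for CAF against NF except Ifit3 and Rsad2, and 8 of the 10 changed sign in some setting. In limma-voom the value was 0.41 for Bst2, 0.23 for Irf7, 0.44 for Isg15 and 0.0275 for Usp18, and with total counts as the scaling it was -0.025 for Ifitm3 and -0.0848 for Stat2. With 1 library left out, values ran from -0.71 to 1.15 for Bst2, from -0.28 to 1.14 for Ddx58, from -2.76 to 0.16 for Ifit1, from -0.26 to 1.12 for Ifitm3, from -1.34 to 0.89 for Irf7, from -0.99 to 1.29 for Isg15, from -0.37 to 1.31 for Stat2 and from -1.48 to 0.68 for Usp18. In each of these the highest value came without NF replicate 1. The cause was not tested beyond this. None of the single-gene values recomputed for bcatKO_CAF against CAF or against NF changed sign. With 3 libraries per group and no label for cultures or animals, the wide range among the NF libraries limits both comparisons that use them, and genes under about 1 CPM, such as Mx1 in CAF, rest on few counts.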
